A study of Mus musculus with 12 samples.

Results

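The 10 genes described here encode the TNF receptors TNFR1 (Tnfrsf1a) and TNFR2 (Tnfrsf1b), the TNFR1 adaptors TRADD (Tradd) and RIPK1 (Ripk1), the TNF receptor-associated factors Traf1, Traf2, Traf3, Traf5 and Traf6, and the ubiquitin ligase cIAP2 (Birc3). They were chosen by symbol from the 35855 genes measured, and the rule used symbols alone. Earlier results of these data were known when the symbols were chosen. RNA sequencing was done on CD8 T cells sorted from spleen, with 3 libraries in each of 4 groups. The question was how TCF-1, the transcription factor encoded by Tcf7, shapes CD8 T cells before and after an allogeneic transplant, the setting of graft-versus-host disease. WT denotes donor cells with intact Tcf7 and TCF-1 cKO denotes cells from donors in which a floxed Tcf7 was deleted by CD4cre, both on the C57BL/6 background. The labels write this genotype as TCF-7 cKO. CD4cre acts from the double-positive stage of thymic development, so the deletion preceded both maturation and transfer. Pre-transplant cells came straight from donor spleens. Post-transplant cells were donor cells recovered on day 7 from spleens of lethally irradiated BALB/c recipients given T cells of that genotype. Donors and recipients were female, and per the study's methods the donors were age-matched to each other and, as far as could be done, to the recipients. The age behind each library, and whether any library pooled animals, are not given in the sources used here, so the p-values below measure only the spread between libraries.

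As background, TNF binds both receptors. TNFR1 carries a death domain that recruits TRADD and RIPK1, and TRADD in turn brings TRAF2, TRAF5 and the cIAP ubiquitin ligases to build a complex that activates NF-kB. TNFR2 has no death domain, binds TRAF2 directly with TRAF1 and the cIAPs, and is the receptor known for co-stimulation of activated T cells. TRAF3 holds non-canonical NF-kB signalling in check by driving loss of the kinase NIK, and TRAF6 serves the IL-1 and Toll-like receptors as well as several TNF family receptors.

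The members lie on 8 chromosomes in the mouse build GRCm38. Tnfrsf1b lies on chr4:145213463-145246870, Tnfrsf1a on chr6:125349362-125362484, Tradd on chr8:105258286-105264609 and Traf2 on chr2:25517982-25546940. The promoters of the 3 members that are shown next with Traf3 were chosen because Tnfrsf1b, Traf1 and Traf2 were lower in TCF-1 cKO than in WT cells after transplant, and Traf3 fell after transplant in WT cells. Each sequence holds the 250 bases before the start of the gene (RefSeq, GRCm38.p6), read 5′ to 3′ on the strand of the gene, at chr4:145246871-145247120 (minus strand) for Tnfrsf1b, chr2:34961773-34962022 (minus) for Traf1, chr2:25546941-25547190 (minus) for Traf2 and chr12:111166120-111166369 (plus) for Traf3. Capitals mark a match to a searched motif.
Tnfrsf1b: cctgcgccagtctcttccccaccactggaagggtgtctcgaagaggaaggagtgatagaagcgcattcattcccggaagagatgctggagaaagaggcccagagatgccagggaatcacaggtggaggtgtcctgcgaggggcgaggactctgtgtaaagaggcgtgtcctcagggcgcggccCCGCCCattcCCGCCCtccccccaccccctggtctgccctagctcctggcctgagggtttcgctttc
Traf1: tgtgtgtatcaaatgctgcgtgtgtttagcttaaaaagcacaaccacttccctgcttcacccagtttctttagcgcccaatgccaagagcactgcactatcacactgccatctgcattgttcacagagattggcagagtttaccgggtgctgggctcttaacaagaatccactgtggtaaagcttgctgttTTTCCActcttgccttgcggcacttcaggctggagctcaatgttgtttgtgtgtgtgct
Traf2: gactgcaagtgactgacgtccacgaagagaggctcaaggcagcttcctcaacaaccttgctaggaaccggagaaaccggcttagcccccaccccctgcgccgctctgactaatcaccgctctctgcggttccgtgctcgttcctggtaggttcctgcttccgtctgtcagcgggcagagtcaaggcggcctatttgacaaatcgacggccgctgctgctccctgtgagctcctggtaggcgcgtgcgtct
Traf3: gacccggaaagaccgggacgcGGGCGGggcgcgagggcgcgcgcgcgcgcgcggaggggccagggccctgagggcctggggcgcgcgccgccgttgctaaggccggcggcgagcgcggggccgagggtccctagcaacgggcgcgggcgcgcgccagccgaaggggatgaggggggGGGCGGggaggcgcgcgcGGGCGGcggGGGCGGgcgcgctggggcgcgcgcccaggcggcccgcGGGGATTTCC

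Sequences were found for 9 members, with 10 promoter windows among them. Both strands of the 250 bases before each RefSeq start were searched for the TCF/LEF core (CTTTGAA or CTTTGAT), the NF-kB consensus, the GC box GGGCGG and the NFAT core TGGAAA. For Tnfrsf1a and 1 of the Ripk1 windows these bases lie inside the gene as GENCODE annotates it, as do the last bases for Birc3. None of the 10 windows held the TCF/LEF core, which was present in 7.48% of all 32851 mouse promoters. The NF-kB consensus was found before Traf3, next to the start of the gene, and occurs in 7.25% of all promoters. GC boxes were found for Ripk1, Tnfrsf1b, Traf3, Traf5 and Traf6, against 32.7% of all promoters, and the NFAT core for Traf1, against 18.6%. Matches of different motifs may overlap, and these counts describe letters in a short window only. G and C made up 48.0% of the Traf1 window, 60.8% of the Traf2 window, 62.8% of the Tnfrsf1b window and 85.2% of the Traf3 window, beside a median of 52.4% over all promoters.

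Before the members are compared, several libraries and labels need stating. Total estimated counts ran from 4520270 to 9577076 in TCF-1 cKO pre-transplant libraries and from 18184814 to 32657005 in the others, and 3 counts, taken as the floor of detection, equalled 0.0922 to 0.667 CPM, a unit of counts relative to library size. Intervals were not drawn from these counts, which carry no molecular identifiers. Tcf7, the targeted gene, was at 76.1 to 166 CPM in WT and 26.3 to 62.9 in TCF-1 cKO cells before transplant. Cd8a was lower in the same TCF-1 cKO libraries, at 26.5 to 30.9 against 87.2 to 154 CPM in WT. Whether Tcf7 was lower relative to T cell RNA was not tested. After transplant Tcf7 was at 26.9, 26.5 and 10.7 in WT and 14.6, 13.7 and 14.1 in TCF-1 cKO cells, so that the library labelled WT post-transplant replicate 3 was below all 3 TCF-1 cKO libraries. The sources used here do not say which exons were deleted, and gene counts include any reads outside them. Counts of called members that rest on this library are also given without it. TCF-1 cKO post-transplant replicate 2 has a source name that reads CD4 in place of CD8, but its Cd4 level was 2.04 and its Cd8a level 622 CPM, within the range of the other post-transplant libraries.

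The CD8 T cell markers were present in every library, but those of other cells were too, most of all before transplant. The 7 CD8 T cell markers summed to 1629–1795 CPM in WT and 449–843 in TCF-1 cKO cells before transplant, and to 9992–16505 and 10119–11905 after. The 7 B cell markers, all above 0 in every library, summed to 12330–18008 in WT and 5144–12385 in TCF-1 cKO cells before transplant, and to 703–1127 and 503–794 after. The 7 myeloid markers summed to 1118–2714 in WT and 698–975 in TCF-1 cKO cells before transplant and to 101–295 after, with 1 marker at 0 in some TCF-1 cKO post-transplant library, and the 6 erythroid markers to 2121–17118 before and 318–2618 after, again with 1 marker at 0 in that group. Plasma cell markers (5) summed to 664–1922 in WT and 204–372 in TCF-1 cKO cells before transplant, and to 85.2–170 and 56.2–58.5 after. Plasmacytoid dendritic cell markers (5) summed to 557–702 and 216–565 before, and to 169–661 and 110–126 after. CD4 T cell markers (3) summed to 129–145 and 27.5–50.6 before, and to 7.78–62.7 and 4.71–10.4 after, and NK cell markers (4) to 30.1–113 before and 14.5–49.5 after, with 1 at 0 in a WT post-transplant library. Between the genotypes, the sums of CD8 T cell, myeloid, plasma cell and CD4 T cell markers did not overlap before transplant. Those of plasma cell and plasmacytoid dendritic cell markers did not overlap after, and each of these sums was lower in TCF-1 cKO cells. Singly, only Lyz2 of the myeloid markers and only Ighg2b and Xbp1 of the plasma cell markers did not overlap before transplant. The B cell sums overlapped then, but Cd22 (573–607 CPM in WT, 177–431 in TCF-1 cKO cells) and Igkc (3944–7506 and 1372–3467) did not. The other B cell markers overlapped. Siglech of the plasmacytoid dendritic cell markers did not overlap either, at 47.1–65.2 in WT and 2.11–7.92 in TCF-1 cKO cells. After transplant only Xbp1 of the plasma cell markers did not overlap. Of the plasmacytoid dendritic cell markers, Bst2 and Irf8 were then lower in TCF-1 cKO cells, while Siglech and Ccr9 overlapped. Tcf4 went the other way, at 17.6–20.6 CPM in TCF-1 cKO and 5.77–9.68 in WT cells. In bulk libraries such as these, fewer cells of a type and less RNA per cell cannot be told apart. B cells express several of the members, and the part these markers played in the results below was not tested.

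Levels are given as CPM after scaling by the trimmed mean of M values (TMM), which compares libraries for 1 gene, and as TPM, a unit of transcripts per length that allows genes to be compared. Before transplant in WT cells, Birc3 (104 ± 25.2 TPM, SD, n = 3), Traf1 (104 ± 25.1) and Traf5 (84.1 ± 25.5) stood highest, and Traf6 (7.60 ± 2.46) and Tnfrsf1a (13.3 ± 5.38) lowest. After transplant in WT cells Tradd led at 123.6 ± 58.7 TPM, followed by Traf1 (73.3 ± 55.2) and Tnfrsf1b (53.9 ± 30.9), whereas Traf3 (1.15 ± 0.306) and Traf6 (1.31 ± 0.679) were lowest. In TCF-1 cKO cells after transplant no member exceeded the 23.8 ± 5.78 TPM of Tradd, and Traf3 was again lowest (0.760 ± 0.467). In both groups TNFR2 mRNA stood above TNFR1 mRNA, with Tnfrsf1a at 9.17 ± 5.92 TPM in WT and 1.47 ± 1.18 in TCF-1 cKO cells after transplant and Tnfrsf1b at 53.9 ± 30.9 and 6.19 ± 2.14.

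In CPM, 6 members (Tnfrsf1a, Tnfrsf1b, Tradd, Ripk1, Traf1 and Traf2) had their highest mean in WT post-transplant cells and 4 (Traf3, Traf5, Traf6 and Birc3) in WT pre-transplant cells. On the TPM scale only Tnfrsf1b and Tradd were highest in WT post-transplant cells. Most neighbours in this order overlapped. The order of Tradd on CPM was WT post-transplant (379 ± 210), TCF-1 cKO post-transplant (76.2 ± 21.6), WT pre-transplant (41.3 ± 6.32) and TCF-1 cKO pre-transplant (33.8 ± 29.7), and only the last pair of neighbours overlapped. For Tnfrsf1b the order was WT post-transplant (425 ± 276), WT pre-transplant (147 ± 59.3), TCF-1 cKO post-transplant (49.8 ± 20.2) and TCF-1 cKO pre-transplant (48.1 ± 1.60), and only the step from WT pre-transplant to TCF-1 cKO post-transplant cells was free of overlap.

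**Figure D1:**
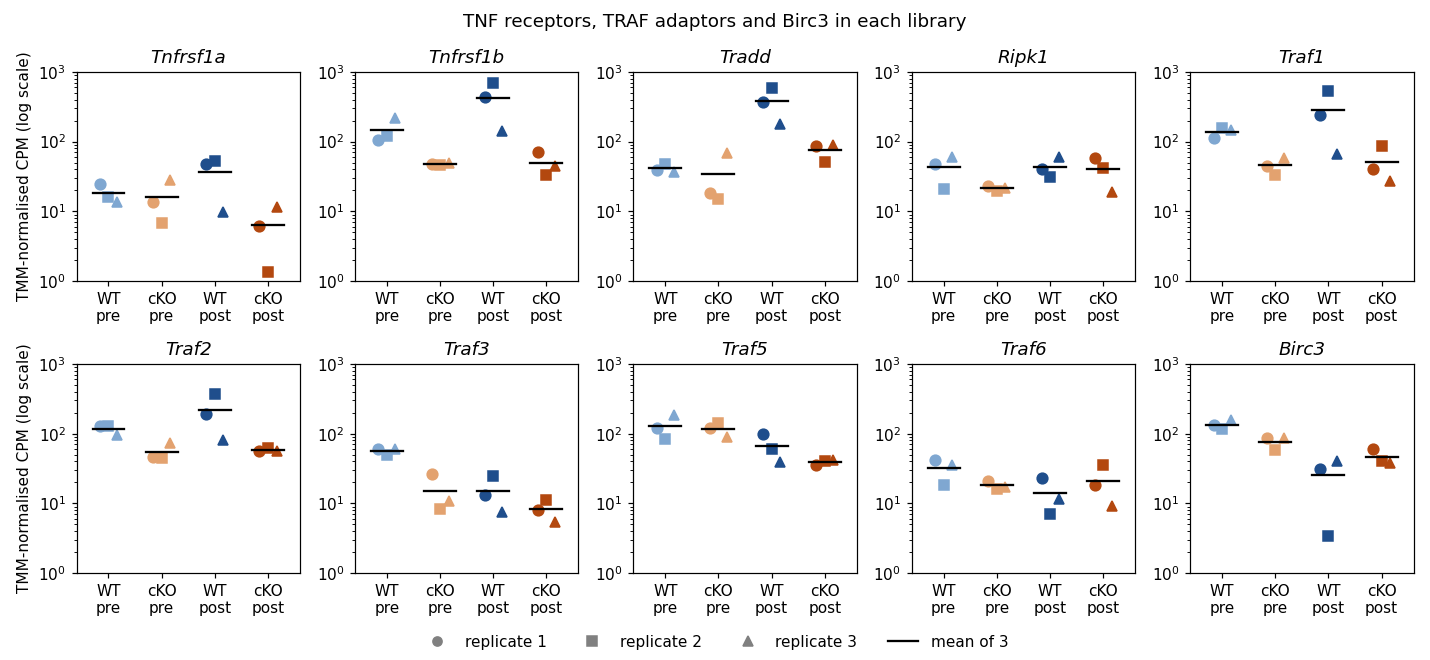
Level of each of the 10 members in every library, in TMM-scaled CPM on a log axis, with 1 panel per gene, points for the 3 libraries of each of the 4 groups and a line for their mean. Tradd is at 176 to 596 in WT post-transplant cells and at most 90.8 in every other group, and WT post-transplant replicates 1 and 2 lie well above replicate 3 for Tnfrsf1a, Tnfrsf1b, Traf1 and Traf2.

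The comparison of genotypes after transplant asked whether the TNF receptor machinery differed between recovered donor cells of each genotype. Both receptors, TRADD, TRAF1 and TRAF2 were lower in TCF-1 cKO cells, by 4.53 to 10.8 times, while RIPK1, TRAF3, TRAF5, TRAF6 and cIAP2 did not pass the test. Thus 5 of the 10 members were called lower by the quasi-likelihood test of edgeR at a Benjamini-Hochberg false discovery rate of 0.1, and none higher, where 15.4% of the 16026 genes tested were called lower. The study had already listed Traf2, Tradd and Tnfrsf1a as downregulated in these cells. The members were chosen with earlier results known, so their share is not that of a blind choice. In 3 of the 10 (Tnfrsf1b, Tradd and Traf2) every TCF-1 cKO library was below every WT library, a pattern held by 17.3% of all genes. Leaving out the library labelled WT post-transplant replicate 3 gave 7 members called lower (Traf3 and Traf5 added), and leaving out any 1 of the other 5 libraries gave 0, with at most 2 genes called in all. In TCF-1 cKO cells the summed plasma cell and plasmacytoid dendritic cell markers were also lower after transplant without overlap. Of the markers in these sums only Xbp1, Bst2 and Irf8 showed this, and Tcf4 went the other way. The part of these markers in the differences of the members was not tested.

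Of the receptors, Tnfrsf1b, the TNFR2 gene, was at 436, 696 and 144 CPM in the 3 WT libraries and 72.1, 32.9 and 44.4 in the TCF-1 cKO libraries after transplant. The groups did not overlap, and replicate 3 was the lowest WT library. The log2 fold change was -3.43 (SE 0.69), a 10.8-fold lower level in TCF-1 cKO cells with an edgeR adjusted p of 0.0448. This was the largest fold among the members, and Tnfrsf1b was called in 12 of 18 other settings. Tnfrsf1a, which encodes the death domain receptor TNFR1, was at 47.9, 52.7 and 9.92 in WT and 6.22, 1.33 and 11.6 in TCF-1 cKO libraries. WT replicate 3 lay within the TCF-1 cKO range, so the groups overlapped. The log2 fold change was -2.89 (SE 0.92) with an edgeR adjusted p of 0.0825. Tnfrsf1a was called in 7 of 18 other settings, and not with library totals (adjusted p 0.117).

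Among the adaptors of TNFR1, Tradd was at 365, 596 and 176 CPM in WT and 86.2, 51.4 and 90.8 in TCF-1 cKO cells after transplant. All TCF-1 cKO libraries were lower. It was lower by 2.63 on the log2 scale (SE 0.58), with an edgeR adjusted p of 0.0448, and was called in 11 of 18 other settings. Ripk1, the kinase that acts as a scaffold for NF-kB activation and as a trigger of cell death, was at 40.6, 30.7 and 60.4 in WT and 58.5, 42.1 and 19.2 in TCF-1 cKO cells. These ranges overlapped widely, and the log2 fold change of -0.37 (SE 0.52) did not pass the test (edgeR adjusted p 0.670).

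Of the TRAFs, Traf1, an adaptor that pairs with TRAF2 and is itself a target of NF-kB, was at 244, 537 and 66.9 CPM in WT and 39.9, 87.3 and 26.9 in TCF-1 cKO cells after transplant. WT replicate 3 fell among the TCF-1 cKO libraries. Traf1 was lower by 2.72 on the log2 scale (SE 0.86), with an edgeR adjusted p of 0.0805, and was called in 8 of 18 other settings, library totals (adjusted p 0.102) not among them. Traf2, the adaptor that carries cIAPs to both receptors, was at 194, 374 and 81.9 in WT and 57.2, 62.6 and 56.1 in TCF-1 cKO cells. The TCF-1 cKO libraries lay close together and all below WT. The log2 fold change was -2.18 (SE 0.63), with an edgeR adjusted p of 0.0632. Traf2 was called in 8 of 18 other settings, and not with library totals (adjusted p 0.109). Traf5, which acts beside TRAF2 and restrains T cell responses, was at 98.4, 60.3 and 39.7 in WT and 35.4, 40.1 and 41.4 in TCF-1 cKO cells, with an edgeR adjusted p of 0.227 for a log2 fold change of -1.07 (SE 0.53). Traf3 was at 13.1, 24.4 and 7.52 in WT and 8.05, 11.1 and 5.51 in TCF-1 cKO cells. It was low in all 6 libraries, and its log2 fold change of -1.14 (SE 0.62) did not pass (edgeR adjusted p 0.264). Traf6 was at 6.94 to 23.0 in WT and 9.22 to 36.0 in TCF-1 cKO cells, with a log2 fold change of 0.34 (SE 0.71), and did not pass (edgeR adjusted p 0.781).

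Birc3, the cIAP2 ligase that attaches ubiquitin chains to RIPK1, was at 31.4, 3.43 and 41.0 CPM in WT and 59.9, 40.7 and 37.9 in TCF-1 cKO cells after transplant. WT replicate 2 was the lowest library and replicate 3 the highest of WT, the reverse of the order seen for the receptors and TRAF2. Its log2 fold change of 0.63 (SE 0.76) did not pass the test (edgeR adjusted p 0.614).

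**Figure D2:**
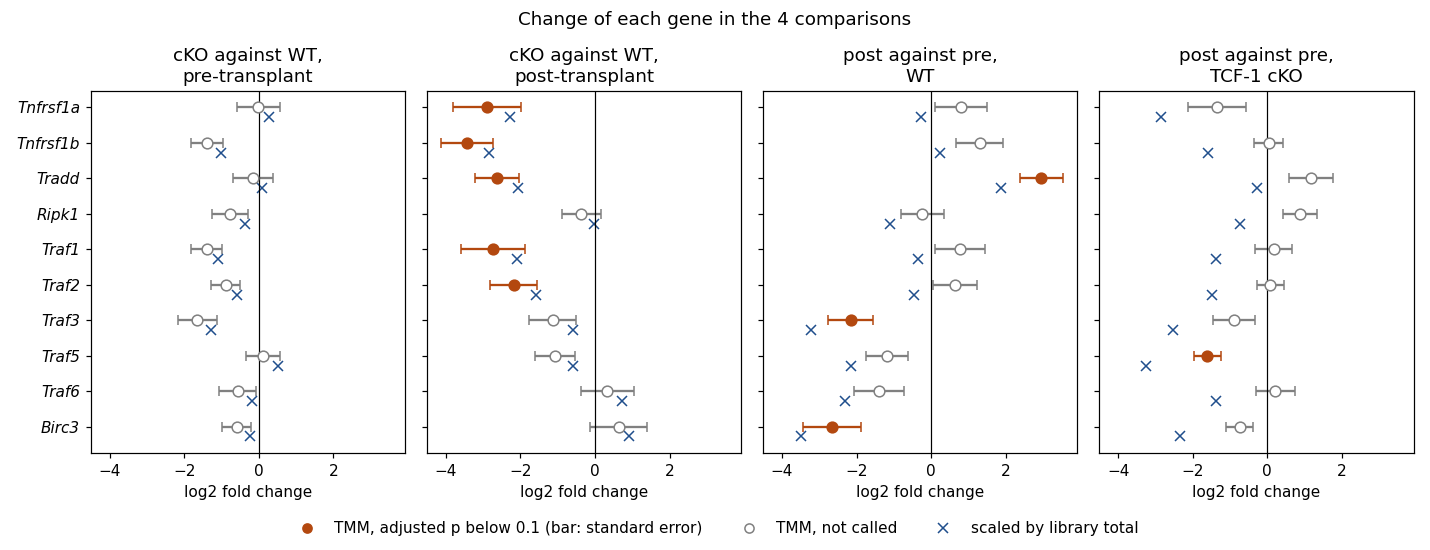
Log2 fold change of each member in each of the 4 comparisons, with bars of 1 SE and filled points for changes called by edgeR at a false discovery rate of 0.1, and crosses for the same change with libraries scaled by their totals. After transplant 5 members lie at -2.18 or lower for TCF-1 cKO against WT, and Tradd lies at 2.96 for WT cells after against before transplant.

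The post-transplant difference varied with base composition. Across the 16026 genes tested, the log2 fold change of TCF-1 cKO against WT correlated with the GC content of a gene's transcripts (Spearman rho -0.56), with a median of 0.68 in the decile of genes with the lowest GC content and -2.51 in the highest decile. Across the 10 members rho was -0.75. Points of this kind share the same 6 libraries and are not independent. The 6 members with the highest GC content, Tradd (59.2%), Tnfrsf1a (56.3%), Tnfrsf1b (54.2%), Traf2 (53.5%), Traf3 (53.0%) and Traf1 (52.9%), had log2 fold changes from -3.43 to -1.14, while the 4 with the lowest, Birc3 (47.6%), Ripk1 (46.7%), Traf6 (46.5%) and Traf5 (44.2%, from its retained-intron transcripts alone), ranged from -1.07 to 0.63. After an offset for GC content and transcript length was added to each library, rho fell to -0.03 over all genes and -0.13 over the members, and only Tnfrsf1b remained called, at -2.18 (SE 0.46, edgeR adjusted p 0.0942), among 680 genes called. The other 4 called members moved by unequal amounts under the offset, Tradd from -2.63 to -0.51, Tnfrsf1a from -2.89 to -1.08, Traf2 from -2.18 to -1.34 and Traf1 from -2.72 to -1.92. The part that base composition played in the differences was not tested.

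**Figure D3:**
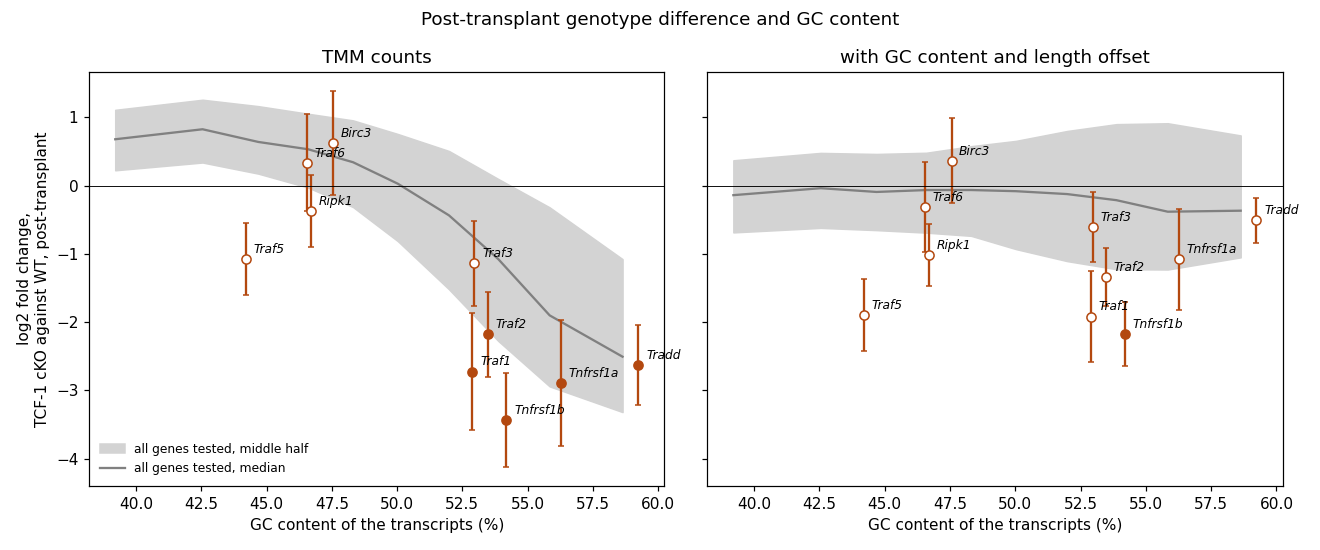
Log2 fold change of TCF-1 cKO against WT cells after transplant, plotted against GC content of transcripts in percent, without (left) and with (right) the offset, with the median and interquartile range of each decile of genes as a line and band and the 10 members as points with bars of 1 SE, filled where called. The median of all genes falls from 0.68 to -2.51 across the deciles without the offset, and the 5 called members are among the 6 with the highest GC content.

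The WT post-transplant libraries differed from each other along the same axis. Relative to the mean of replicates 1 and 2, WT replicate 3 was lower by 2.34 for Tnfrsf1a, 1.97 for Tnfrsf1b, 1.45 for Tradd, 2.54 for Traf1 and 1.79 for Traf2 on the log2 scale, and higher by 1.24 for Birc3 and 0.76 for Ripk1. Over all 16026 genes this difference correlated with GC content at rho -0.55, and over the 10 members at -0.62. These differences within WT were of the same direction as those between the genotypes for the 5 called members.

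The comparison of genotypes before transplant asked how donor cells of each genotype differed at rest. No member passed the test, but several were lower in every TCF-1 cKO library. The quasi-likelihood test called 0 of 10 members, with the smallest edgeR adjusted p at 0.199, where it called 7 of 18757 genes (0.0373%). At an unadjusted p under 0.05 there were 4 members (Tnfrsf1b, Traf1, Traf2 and Traf3), all lower, against 17.7% of all genes. In TMM-scaled CPM every TCF-1 cKO library was below every WT library for 5 members (those 4 and Birc3), against 14.2% of all genes. DESeq2 called 3 (Tnfrsf1b, Traf1 and Traf3), limma-voom 0, and edgeR called 3 (Tnfrsf1b, Traf1 and Traf2) without TCF-1 cKO replicate 3. With 3 libraries against 3, the smallest p an exact permutation test can give is 0.1, which was reached by each of these 5 members.

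Tnfrsf1b was at 106, 120 and 215 CPM in WT and 48.3, 46.4 and 49.6 in TCF-1 cKO cells before transplant. The TCF-1 cKO libraries differed by little and all lay below WT. Tnfrsf1b differed by -1.39 on the log2 scale (SE 0.43, edgeR adjusted p 0.211). Traf1 was at 113, 155 and 147 in WT and 45.4, 32.7 and 58.7 in TCF-1 cKO cells, again with no overlap and a log2 fold change of -1.40 (SE 0.41). Traf3, the inhibitor of the non-canonical pathway, was at 60.2, 48.7 and 59.9 in WT and 26.5, 8.21 and 10.9 in TCF-1 cKO cells. This was the largest fold change before transplant, at -1.65 (SE 0.53), with an edgeR adjusted p of 0.215. Traf2 was at 130, 127 and 97.1 in WT and 46.9, 44.8 and 74.4 in TCF-1 cKO cells, with a log2 fold change of -0.89 (SE 0.40) that became -2.50 (edgeR adjusted p 0.397) when only protein-coding transcripts were counted.

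Birc3 was at 131, 118 and 156 CPM in WT and 86.6, 57.9 and 86.4 in TCF-1 cKO cells before transplant, lower in each TCF-1 cKO library on this scale with a log2 fold change of -0.59 (SE 0.39). In TPM its ranges overlapped, at 82.5 to 132 in WT and 56.9 to 125 in TCF-1 cKO cells. With library totals the log2 fold change of Birc3 was -0.24. The other 5 members overlapped between the genotypes. Tradd was at 38.9, 48.5 and 36.6 in WT and 18.4, 15.0 and 68.1 in TCF-1 cKO cells, where replicate 3 was higher than all WT libraries and the others were lower. Tnfrsf1a had the same layout, at 25.0, 16.1 and 13.8 in WT and 13.7, 6.76 and 28.2 in TCF-1 cKO cells, and a log2 fold change of -0.01 (SE 0.57). Ripk1 was at 48.5, 20.8 and 60.2 in WT and 22.9, 19.9 and 21.9 in TCF-1 cKO cells, Traf5 at 120, 85.0 and 187 and at 120, 143 and 90.4, and Traf6 at 42.0, 18.5 and 35.0 and at 21.3, 16.1 and 17.1. The summed CD8 T cell, myeloid, plasma cell and CD4 T cell markers were also lower in TCF-1 cKO than in WT cells before transplant without overlap. Singly, this held for every CD8 and CD4 T cell marker. Among the myeloid and plasma cell markers it held for Lyz2, Ighg2b and Xbp1 only. The B cell and plasmacytoid dendritic cell sums overlapped, but Cd22, Igkc and Siglech were singly lower in TCF-1 cKO cells without overlap. The part of these markers in the values of the members was not tested. Cd8a was at 26.5–30.9 against 87.2–154 CPM.

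Whether the genotype difference itself changed with transplant was asked with an interaction term fitted to the 12 libraries together. None of the 10 members passed (smallest edgeR adjusted p 0.282), where 1 of 21526 genes did (0.00465%). At an unadjusted p under 0.05 there were 2 members, against 15.7% of all genes. The genotype difference of Tradd was more negative after transplant by 2.03 on the log2 scale (SE 0.84, edgeR adjusted p 0.282), and that of Tnfrsf1a by 2.36 (SE 1.09, edgeR adjusted p 0.313). Calls after and not before transplant are thus not shown to differ between the stages. Every alternative for the interaction also called 0 members.

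The comparison of stages in WT cells asked how the members changed between resting donor cells and cells on day 7 after transplant. Tradd rose 7.77-fold, while Traf3 fell 4.45-fold and Birc3 6.32-fold. The edgeR test called 1 of 10 members higher, where 9.7% of 16790 genes were called higher, and 2 lower, where 10.3% were called lower. Tradd went from 38.9, 48.5 and 36.6 CPM to 365, 596 and 176, with every post-transplant library above every pre-transplant library. Its log2 fold change was 2.96 (SE 0.58, edgeR adjusted p 0.00894), with values from 1.23 to 3.52 in the other settings, and it was called in 18 of 18 other settings, those with the GC offset and those without WT post-transplant replicate 3 included. Traf3 went from 60.2, 48.7 and 59.9 to 13.1, 24.4 and 7.52, a log2 fold change of -2.15 (SE 0.61, edgeR adjusted p 0.0404). Birc3 went from 131, 118 and 156 to 31.4, 3.43 and 41.0, a log2 fold change of -2.66 (SE 0.79, edgeR adjusted p 0.0490). Neither overlapped between the stages, and each was called in 14 of 18 other settings, with values from -3.21 to -1.60 for Traf3 and from -4.08 to -1.92 for Birc3. Of the fits that left out a library, Traf3 was not called without WT pre-transplant replicate 1 or 3 or post-transplant replicate 1, nor Birc3 without any 1 of the pre-transplant libraries or post-transplant replicate 1.

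The mean levels of both receptors, TRAF1 and TRAF2 in TMM-scaled CPM were above those before transplant in WT cells, but none of the 4 passed the test. Tnfrsf1b changed by 1.30 (SE 0.62), Tnfrsf1a by 0.80 (SE 0.70), Traf1 by 0.79 (SE 0.67) and Traf2 by 0.64 (SE 0.59) on the log2 scale, although with library totals Tnfrsf1a, Traf1 and Traf2 turned to -0.28, -0.35 and -0.47. In each of these 4, replicates 1 and 2 after transplant were above all pre-transplant libraries and replicate 3 was not. Without WT post-transplant replicate 3, Tnfrsf1b, Traf1 and Traf2 were also called higher, which made 6 members called in all. With the GC content and length offset Tnfrsf1b was called higher as well (1.39, SE 0.49, edgeR adjusted p 0.0847). It was called in 3 of 18 other settings, with values from -0.13 to 1.92. Ripk1 (-0.24, SE 0.58), Traf5 (-1.19, SE 0.57) and Traf6 (-1.39, SE 0.68) did not pass the test. The median over all genes was -0.30 on this scale but -1.25 when libraries were scaled by their totals, and with totals Traf5 and Traf6 were also called lower, for 5 calls.

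In TCF-1 cKO cells Traf5 fell 3.05-fold after transplant, and no other member was called by edgeR, where 16.8% of 18535 genes were called lower. Traf5 went from 120, 143 and 90.4 CPM to 35.4, 40.1 and 41.4, with all post-transplant libraries lower. The log2 fold change was -1.61 (SE 0.36, edgeR adjusted p 0.00873), and it was called in 18 of 18 other settings. The size of the fall varied between them, with -2.85 for protein-coding transcripts only and -3.25 with library totals. Tradd, which rose in WT cells, had a log2 fold change of 1.17 (SE 0.59, edgeR adjusted p 0.166) in TCF-1 cKO cells, going from 18.4, 15.0 and 68.1 to 86.2, 51.4 and 90.8, and turned to -0.28 with library totals. With the GC content and length offset it was called higher, at 1.20 (SE 0.36, edgeR adjusted p 0.0312), as it was in 5 of 18 other settings in all. Pre-transplant replicate 3 lay between the post-transplant libraries, and without it Tradd was called higher. Without post-transplant replicate 3, Ripk1 was called higher.

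For 5 of the other 8 members in TCF-1 cKO cells the direction depended on the scaling. Tnfrsf1b was at 48.3, 46.4 and 49.6 CPM before and 72.1, 32.9 and 44.4 after transplant, a log2 fold change of 0.04 (SE 0.39) with TMM that turned to -1.58 with library totals. Traf1 (0.17, SE 0.49), Traf2 (0.08, SE 0.36) and Traf6 (0.21, SE 0.52) turned in the same way, to -1.37, -1.47 and -1.38. The median over all genes was -0.29 with TMM and -1.89 with totals, and all 4 values with totals lay above that second median. Ripk1 (0.88, SE 0.46) did not pass the test and turned to -0.74 with totals. With the GC content and length offset, Traf2 was called higher (0.87, SE 0.27, edgeR adjusted p 0.0352), the reverse of its call with totals. Ripk1 was called higher there too (1.08, SE 0.44, edgeR adjusted p 0.0942). Traf3 (-0.90, SE 0.57), Birc3 (-0.74, SE 0.37) and Tnfrsf1a (-1.35, SE 0.78) did not pass with TMM, but were below 0 on both scales and called lower with totals, at -2.52, -2.34 and -2.84. Birc3 was also called lower with the offset (-1.37, SE 0.31, edgeR adjusted p 0.0091). Tnfrsf1a was called lower with the replicate block (-1.57, edgeR adjusted p 0.0911). Both stage comparisons set libraries with B cell markers summing to 5144–18008 CPM before transplant against 503–1127 after, and the part of these markers in the changes was not tested.

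The transcripts that carried the counts differed between members. Tnfrsf1a-201, Tnfrsf1b-201 and, after transplant, Tradd-201 held nearly all counts of their genes. Traf2 and Traf5 were divided between coding transcripts and transcripts annotated as retained intron, which do not encode the full protein. Retained-intron transcripts also held a mean of 31.2% of Traf1 counts in WT and 23.3% in TCF-1 cKO cells before transplant. After transplant the Traf1 means were 9.20% and 25.6%, and the genotypes overlapped at both stages. Ripk1 shares of counts were higher in every TCF-1 cKO library than in any WT library of the same stage. As shares of TPM the genotypes overlapped before transplant. The counts behind them were low, such as 2.86 for Ripk1-202 in WT post-transplant replicate 3. The mean shares of counts for Ripk1 differed by 5.25 points before and 4.75 points after transplant (exact permutation test p = 0.1 for each). The shares of Traf2 and Traf5 were singled out after their values were seen. The 1 retained-intron transcript of Traf2 held 15.1%, 38.5% and 11.0% of the gene's counts in WT and 81.2%, 90.2% and 70.1% in TCF-1 cKO cells before transplant. After transplant it held 6.59%, 8.45% and 41.0% in WT and 49.4%, 41.6% and 71.0% in TCF-1 cKO cells. The genotypes did not overlap at either stage, although WT replicate 3 came within 1 point of the lowest TCF-1 cKO library after transplant. The mean share was higher in TCF-1 cKO cells by 59.0 points before and 35.3 points after (exact permutation test, two-sided p = 0.1 for each, the smallest that 3 against 3 allows).

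For Traf5, retained-intron transcripts held 21.9%, 18.7% and 9.56% of counts in WT and 72.5%, 79.8% and 19.1% in TCF-1 cKO cells before transplant, where TCF-1 cKO replicate 3 lay within WT. After transplant they held 15.8%, 41.1% and 55.2% in WT and 79.5%, 75.8% and 88.4% in TCF-1 cKO cells, with no overlap (difference of 43.9 points, exact permutation test p = 0.1). Traf5 was measured through 3 of its 5 annotated transcripts, and the other 2 were absent from the authors' files. Of the 3, only Traf5-205 is coding, so the coding counts of Traf5 rest on that transcript. Counting only protein-coding transcripts, an alternative chosen after the data were seen, added Traf5 to the members called lower after transplant (-2.81, edgeR adjusted p 0.0575) and moved Traf2 from -2.18 to -2.97, whereas Tnfrsf1a was then not called (0.105).

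For Tradd the stages did not overlap in this respect, while the genotypes did. Its retained-intron transcripts held 9.72% to 11.6% of counts in WT and 8.86% to 12.5% in TCF-1 cKO cells before transplant, and at most 2.02% in any library after. Over all genes, retained-intron transcripts held 6.17% to 8.38% of counts in WT and 9.04% to 12.7% in TCF-1 cKO cells before transplant, and 2.41% to 2.86% and 2.83% to 3.21% after. The TCF-1 cKO pre-transplant libraries were also the shallowest. The part that depth played in these shares was not tested.

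**Figure D4:**
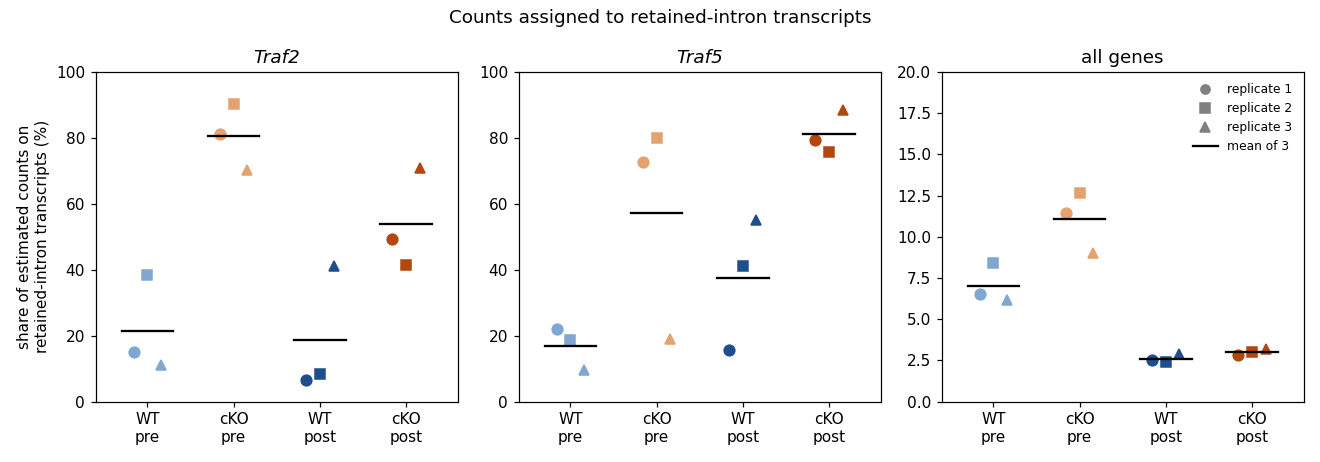
Share of estimated counts held by retained-intron transcripts, in percent, in every library of the 4 groups, for Traf2, Traf5 and all genes together (on an axis of its own), with a line for the mean of the 3 libraries of a group. For Traf2 all TCF-1 cKO libraries, at 41.6% to 90.2%, lie above the WT libraries of the same stage, and for Traf5 this holds after transplant.

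The members sit in a larger pathway, for which 84 further genes were listed in 8 sets. After transplant 25 of the 82 genes tested were lower and 2 higher in TCF-1 cKO than in WT cells by the edgeR test, beside 15.4% of all genes called lower and 2.51% called higher, and the median log2 fold change of the list was -0.71 against 0.15 over all genes. Among 9 NF-kB subunits and inhibitors, 6 were lower, with a median of -3.35. They included Bcl3, an atypical inhibitor family member that acts in the nucleus (-4.24, SE 0.94), and Relb, the partner of p52 in the non-canonical pathway (-3.39, SE 0.76). Of 6 ubiquitin ligases of the TNFR1 complex, 3 were lower, the subunits of the linear ubiquitin assembly complex, with Sharpin at -3.92 (SE 0.74). Other TRAF-binding receptors were lower in 4 of 15 cases, among them the OX40 receptor Tnfrsf4 (-3.64, SE 0.78), which was at 55.3 to 380 CPM in WT and 12.2 to 24.3 in TCF-1 cKO cells. Other TRAF proteins and partners were lower in 4 of 10, including Traf3ip2, the IL-17 receptor adaptor (-3.08, SE 0.60). Of the ligands 2 of 13 were lower, with lymphotoxin beta (Ltb) at -2.35 (SE 0.55), and 1 higher, the OX40 ligand Tnfsf4, which was at 0 to 2.41 in WT and 13.5 to 19.4 in TCF-1 cKO cells. Kinases downstream of TRAFs were lower in 2 and higher in 1 of 14, deubiquitinases and brakes lower in 3 of 9, and the TNFR1 death branch lower in 1 of 6. With the offset for GC content and length, 4 of the 82 were called lower and 0 higher, beside 680 of all 16026 genes called in either direction. The median of the list was then -0.39, against -0.13 over all genes. Among the NF-kB subunits and inhibitors, 0 of 9 were then called, and their median moved from -3.35 to -1.08.

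Before transplant edgeR called 0 of 81 pathway genes between the genotypes, with a median of -0.76 against 0.05 over all genes. In WT cells 8 of 81 were higher and 17 lower after transplant than before, beside 9.7% of all genes called higher and 10.3% lower, so that the higher calls were near the share over all genes. The co-stimulatory receptor Tnfrsf9 (4-1BB) rose by 6.14 on the log2 scale (SE 0.61), Tnfrsf4 by 2.83 (SE 0.72) and the death ligand Fasl by 4.40 (SE 0.76), whereas Lta fell by 5.06 (SE 1.07) and Map3k14, which encodes NIK, fell by 2.30 (SE 0.58). In TCF-1 cKO cells 17 of 82 were higher and 20 lower, beside 19.7% and 16.8% of all genes, and the higher calls again lay near that share. Tnfrsf9 rose by 6.88 (SE 0.55), Fasl by 5.45 (SE 0.41) and Zbp1, a nucleic acid sensor of the death branch, by 4.35 (SE 0.38), while Nfkb2 fell by 2.49 (SE 0.62) and Relb by 2.26 (SE 0.75). The receptors of B cells were among the genes that fell in both genotypes, and the 7 B cell markers summed to at least 5144 CPM in each library before and at most 1127 after transplant.

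Profiles across the 12 libraries placed the members beside different genes. The likeness was the root mean square difference of log2 levels after each gene's mean was removed, over 21526 genes. Nearest to Tnfrsf1b were Zdhhc16 (0.28) and Slc26a10 (0.29), to Tradd S1pr4 (0.33) and Eif6 (0.33), to Traf1 0610012G03Rik (0.25) and Socs3 (0.33), and to Traf2 Tm2d2 (0.26) and Smarcb1 (0.27). Tnfrsf1a lay nearest to Meis3 (0.43), Traf3 to Foxj2 (0.38), Traf5 to Kdm2b (0.30), Birc3 to Zc3h7a (0.35), Ripk1 to Drosha (0.29) and Traf6 to Snx18 (0.34). No member was among the 2 nearest genes of another. The points share depth and base composition, and these likenesses are a description only.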

How the data were processed

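CD8 T cells from 12 mouse libraries (4 groups of 3) were sequenced after cDNA synthesis from total RNA. Per the labels, the authors pseudoaligned reads with kallisto 0.46.2, and the labels name build mm9, while the release of the transcript index is not given in the sources used here. The authors deposited, for each library, estimated counts and TPM for 117497 Ensembl transcripts. Here 116374 of them, with 99.5% to 99.7% of the estimated counts, were summed to 35855 genes named from GENCODE M21, and gene sums were rounded to whole numbers. Lengths equalled those of that release for 99.5% of transcripts, and GC content came from sequences of equal length only. Coordinates are those of GRCm38 and promoters those of RefSeq. No column of authors' comparisons was present.

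Each pair of groups was fitted alone with edgeR 4.0.16 (R 4.3.3) using TMM scaling, the package's filter on low expression and the quasi-likelihood F test, with Benjamini-Hochberg adjustment over all genes tested and calls at a false discovery rate of 0.1. All 10 members passed the filter in every comparison. The interaction was fitted over all 12 libraries. The study's methods name limma-voom without a design, so limma 3.58.1 and DESeq2 1.42.0 served as alternatives, beside other scalings, filters, thresholds, log2(TPM + 1), an offset for GC content and length (loess span 0.4), a replicate block, protein-coding transcripts only and the omission of 1 library. Single values were compared by a two-sided exact permutation test, which cannot go below 0.1. Replicates differed by more than counting noise in every group, so each was kept as 1 sample. Same-numbered libraries of different groups had correlations of their deviations from -0.16 to 0.23, with no comparison above 0.1 in all 3 pairs, and were not treated as paired. The fits were tested on simulated counts that held no trend with GC content and no outlying library, so such conditions were not covered. All 10 members, the targeted gene and the sort markers are named throughout. From each pathway list, at most 3 called genes in each direction were eligible to be named. The members and lists were chosen with earlier results of these data known. Of the study, only RNA sequencing was analysed, and WT libraries also served other publications of the same laboratory. A B cell marker of the original list is not reported here and was left out of the sums.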

Additional observations from a re-analysis of the deposited data

How the results depend on the processing

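Of 960 values of members under an alternative, 805 kept their direction and side of the threshold, 55 were no longer called, 38 became called, 9 reversed and 53 uncalled values changed sign. The cause of these changes was not tested. Before transplant, where edgeR called 0 members between genotypes, DESeq2 called 3 and edgeR without a filter on low counts 1, and leaving out 1 library gave 0 to 3. After transplant, where 5 were called, limma-voom, library totals and a false discovery rate of 0.05 each gave 2, the GC content and length offset 1, and leaving out 1 library 0 to 7. In WT cells after against before transplant, where 3 were called, library totals and log2(TPM + 1) each gave 5, and leaving out 1 library 1 to 6. In TCF-1 cKO cells, where 1 was called, limma-voom gave 2, library totals 8, log2(TPM + 1) 9, the GC content and length offset 5, and leaving out 1 library 1 to 2. Reversed there with library totals were Tnfrsf1b (-1.58), Traf1 (-1.37), Traf2 (-1.47) and Traf6 (-1.38), and with log2(TPM + 1) Tnfrsf1b (-1.80), Ripk1 (-1.18), Traf1 (-1.91), Traf2 (-1.38) and Traf6 (-1.28). The 6 members highest in WT post-transplant cells became 2 on the TPM scale. The replicate block gave 3 members after transplant and 3 for TCF-1 cKO cells by stage, and with the GC content and length offset the replicate block gave 0 and 5. The block ended the calls of Tnfrsf1a and Traf2 after transplant and made Tradd called higher in TCF-1 cKO cells by stage, and with the offset it ended that of Traf3 in WT cells by stage. After transplant each library correlated best with that of its own number, which is a hint from the data and not from the design. Genes called over all genes between genotypes before transplant numbered 7 by edgeR, 1425 by DESeq2, 619 without the filter, 341 with log2(TPM + 1) and 2739 without TCF-1 cKO replicate 3. After transplant they numbered 2868 by edgeR, 4525 by DESeq2, 1396 at a false discovery rate of 0.05, 680 with the offset, 2 with the replicate block and offset, 5299 without WT replicate 3 and 0 to 2 without any other library. By stage, edgeR called 3362 genes in WT and 6774 in TCF-1 cKO cells, against 6732 and 13174 with log2(TPM + 1) and 12268 in TCF-1 cKO cells with library totals, and leaving out WT pre-transplant replicate 3 gave 1579. Depth was lowest in TCF-1 cKO pre-transplant libraries, at 4520270 to 9577076 counts, which limits the precision of the less abundant members there.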
